A study of Mus musculus with 8 samples.

Results

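The outer hair cell genes examined here are 9 genes fixed by name for their roles in this cell: the motor gene *Slc26a5*, the calcium-binding genes *Ocm* and *Sri*, the efferent synapse genes *Chrna9*, *Chrna10* and *Kcnn2*, the hair bundle gene *Strc*, the actin filament gene *Lmod3* and the identity gene *Ikzf2*. All 9 were listed among the 47628 named gene entries, and all 9 passed the minimum count and were tested with 19366 genes in all. RNA came from whole cochleae of 4 WT mice and 4 *Opa1*+/- littermates, untreated, at 21 days of age and on a mixed background of 129/SV and C57BL/6, with both cochleae of a mouse together. *Opa1*+/- mice carry 1 allele with the deletion of TTAG that is recurrent in human *OPA1*, and the change is in the germ line. Each library is 1 mouse, named here by its animal number (WT_4, WT_5, WT_6 and WT_8, and Het_2, Het_7, Het_484 and Het_491).

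Outer hair cells amplify sound within the organ of Corti. Prestin, the product of *Slc26a5*, changes shape with membrane voltage and drives the length changes of the cell, while oncomodulin, the product of *Ocm*, is the main mobile calcium buffer. Efferent fibres from the brainstem release acetylcholine onto a receptor built of α9 and α10 subunits, and the calcium that enters opens SK2 potassium channels, encoded by *Kcnn2*, which hyperpolarizes the cell. Stereocilin, from *Strc*, links the tips of stereocilia to each other and to the tectorial membrane. Helios, from *Ikzf2*, is a zinc finger transcription factor needed for outer hair cell identity.

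Counts on named genes ranged from 15978051 to 20828030 per mouse, and values are given as CPM, the count scaled to a library of 1000000 after TMM normalization. *Opa1* stood between 112 and 126 CPM in WT and between 60.4 and 70.0 CPM in *Opa1*+/- mice, so the genotype labels held in all 8 libraries. The share of outer hair cell RNA in these libraries was not measured, and some of the 9 genes had few counts. *Slc26a5* had only 21 to 67 counts per mouse and *Chrna9* 10 to 39, whereas *Sri* had 1062 to 1603. In whole tissue, fewer outer hair cells and less RNA per cell cannot be told apart. Skeletal muscle RNA varied most among the tissues checked, with 15 muscle genes summing to 2863 CPM in WT_6 and to 29.2 CPM in Het_491, and none of the 15 was at 0 over the 8 mice. WT_6 stood apart in muscle genes. It also had the highest sum of 12 further outer hair cell genes, at 623 CPM against 375 to 478 CPM in the other mice. For 6 inner hair cell genes it had 152 CPM against 107 to 130 CPM. The most abundant of the 12 genes was *Pvalb*, at 107 to 245 CPM in WT and 112 to 154 CPM in *Opa1*+/- mice. The paper used its protein to label hair cells and spiral ganglion neurons, so the sum is not of outer hair cells alone. Because WT_6 stood apart, the log2 fold change of each of the 9 genes is also given without it.

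To determine whether outer hair cell genes differed between the genotypes at 21 days, the 9 genes were read from a fit across all genes. None of the 9 passed an adjusted p of 0.05 in edgeR's quasi-likelihood test (Benjamini-Hochberg) or in DESeq2's Wald test, beside 0.0258% and 0.119% of all genes tested. Of the 9 genes, 4 had a log2 fold change above 0 and 5 below 0, with a median of -0.03, beside 9709 above and 9657 below and a median of 0.000395 over all genes. Without WT_6, 5 were above and 4 below 0, with a median of 0.11. The log2 fold change was below 0 in 49.9% of all genes. In *Ikzf2* alone the groups did not overlap, and it was lower in *Opa1*+/- mice. Such separation in either direction was found in 4.31% of all genes and in the lower direction in 2.33%, and 1 gene out of 9 is a small count to read against these shares. *Ikzf2* was also the 1 member with an unadjusted p under 0.05 from edgeR, a threshold that 6.72% of all genes passed, and 3.22% passed in the lower direction.

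**Figure D1:**
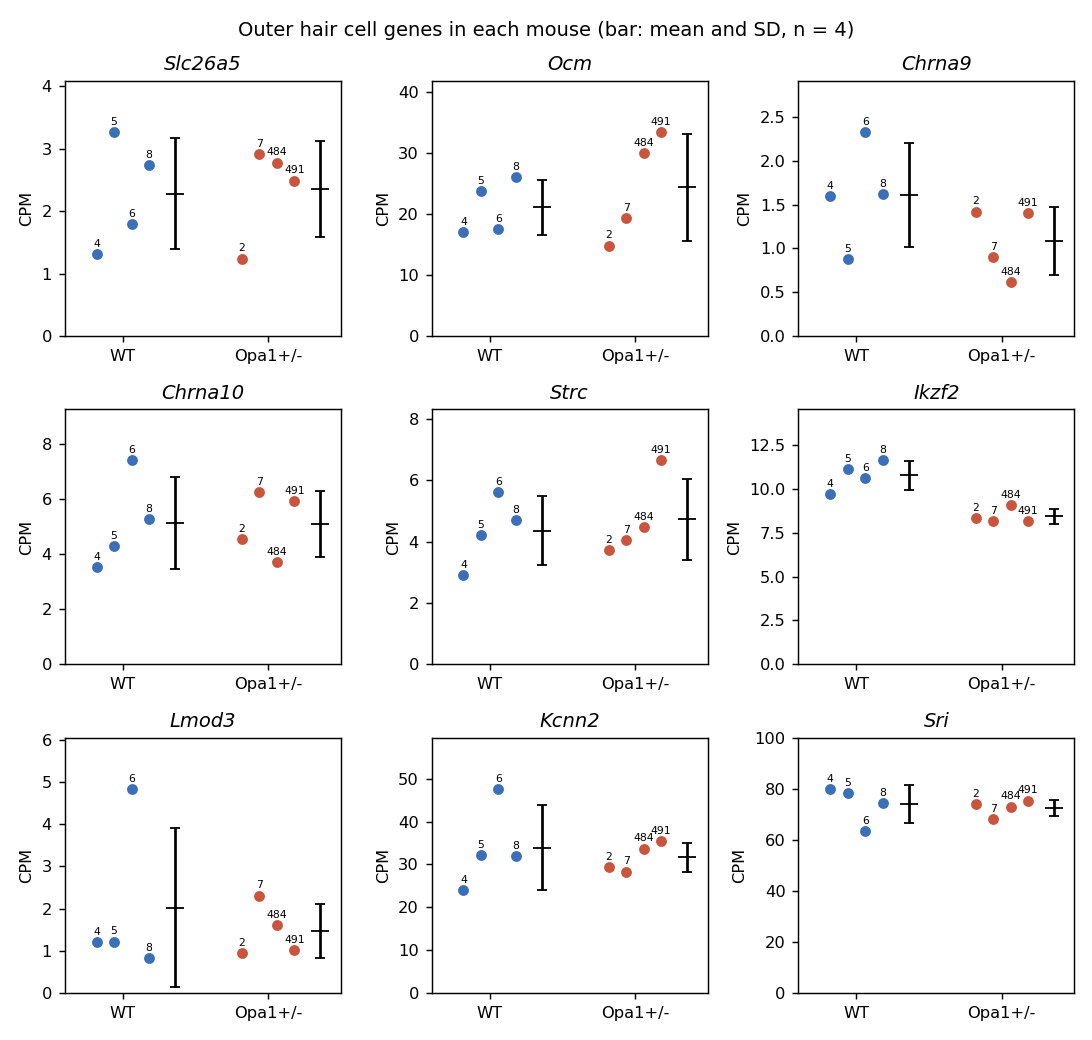
Level of each of the 9 genes in CPM (vertical axes, from 0) in 4 WT mice (blue) and 4 Opa1+/- mice (red), with animal numbers beside the points and the mean and SD (n = 4) as black bars. The 4 red points of Ikzf2 lie between 8.17 and 9.04 CPM, under all 4 blue points, while the groups overlap in the other 8 genes, and Chrna9, Chrna10, Lmod3 and Kcnn2 have their highest point in WT_6.

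*Slc26a5* (ENSMUSG00000029015.9, GRCm38 chromosome 5 from 21810655 to 21865604, minus strand) encodes the motor protein. It was found at 1.31, 3.27, 1.79 and 2.74 CPM in WT_4, WT_5, WT_6 and WT_8, and at 1.24, 2.91, 2.78 and 2.49 CPM in Het_2, Het_7, Het_484 and Het_491. Each group held low and high mice, and the 2 ranges covered nearly the same span. The log2 fold change was 0.04 (SE 0.337, edgeR adjusted p = 0.986). Its 95% interval, from -0.72 to 0.80, leaves room for a level between 0.608 and 1.74 times that of WT. Between mice of a group the coefficient of variation was 35.7%, against 15.4% from counting alone. Leaving out WT_6 gave a log2 fold change of -0.06 (edgeR adjusted p = 0.966).

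*Ocm* (ENSMUSG00000029618.13, chromosome 5 from 144019804 to 144026670, minus strand) encodes oncomodulin, the calcium buffer. It had 17.0, 23.7, 17.5 and 26.0 CPM in the WT mice in the order above and 14.8, 19.3, 30.0 and 33.4 CPM in the *Opa1*+/- mice. Het_484 and Het_491 lay above the other mice, and Het_2 lay below all of them. The mean was 21.1 ± 4.51 CPM for WT versus 24.4 ± 8.77 CPM for *Opa1*+/- (SD, n = 4 per genotype), which is a log2 difference of 0.21 (SE 0.252, 95% interval -0.36 to 0.77, edgeR adjusted p = 0.899). Without WT_6 it was 0.13 (edgeR adjusted p = 0.899). Without Het_484 and Het_491, the direction turned to -0.30 (edgeR adjusted p = 1). The same 2 mice had 10918 and 14530 CPM of 8 erythroid and neutrophil genes, and WT_4, with 13042 CPM of these genes, had 17.0 CPM of *Ocm*. Over all mice, the summed level of these 8 genes ranged from 4667 to 13042 CPM in WT and from 8770 to 14530 CPM in *Opa1*+/- mice, none was at 0, and their part in the *Ocm* values was not tested.

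*Sri* (ENSMUSG00000003161.15, chromosome 5 from 8046078 to 8069379, plus strand) encodes sorcin, a penta-EF-hand calcium sensor made in many tissues. It reached 80.0, 78.3, 63.4 and 74.5 CPM in WT, against 74.0, 68.1, 73.1 and 75.4 CPM in *Opa1*+/- mice, with WT_6 the lowest. The log2 fold change was -0.03 (SE 0.0784, edgeR adjusted p = 0.958). This was the narrowest estimate of the 9 genes, with a 95% interval from a decrease by 13.2% to an increase by 10.8%. Without WT_6 the value was -0.09 (edgeR adjusted p = 0.68).

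Both subunits of the efferent receptor were detected in every mouse. *Chrna9* (ENSMUSG00000029205.12, chromosome 5 from 65934921 to 65977326, plus strand), the subunit that can form a receptor by itself, stood at 1.60, 0.879, 2.33 and 1.62 CPM in WT, against 1.42, 0.902, 0.619 and 1.40 CPM in *Opa1*+/- mice. Of the WT mice, 3 were above all *Opa1*+/- mice and WT_5 was below 3 of them. Its log2 fold change of -0.56 was the lowest of the 9 genes, but the SE was 0.348 and the 95% interval ran from -1.34 to 0.23 (edgeR adjusted p = 0.785). Without WT_5 the groups no longer overlapped, as was then so in 6.84% of all genes, and the value was -0.76 (edgeR adjusted p = 0.89), whereas without WT_6, the highest mouse, it was -0.33 (edgeR adjusted p = 0.8). In Het_484 the gene rested on 10 counts.

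*Chrna10* (ENSMUSG00000066279.3, chromosome 7 from 102111266 to 102116828, minus strand), the subunit that completes the native receptor, had 3.54, 4.30, 7.41 and 5.29 CPM in WT, against 4.55, 6.27, 3.71 and 5.94 CPM in *Opa1*+/- mice. The means were nearly equal, at 5.13 ± 1.68 and 5.12 ± 1.19 CPM (SD, n = 4 per genotype), and the log2 fold change was 0.00 (SE 0.248, 95% interval -0.55 to 0.56, edgeR adjusted p = 1). A caution applies to this gene. Of its 2628 exon bases, 1025, or 39.0%, are also exon of *Art1* on the other strand, a gene of an ADP-ribosyltransferase known from skeletal muscle. The use of strand in counting is not given in the sources used here, so reads of the pair cannot be told apart with certainty. *Art1* was highest in WT_6, at 12.3 CPM against 3.76 to 7.32 CPM in the other 7 mice. *Chrna10* had its highest value in the same mouse, in which hair cell genes were highest too. Het_7 came next in both genes, at 7.32 CPM of *Art1* and 6.27 CPM of *Chrna10*. Over the 8 mice, with group means removed, Pearson's r of *Chrna10* was 0.15 with the sum of the muscle genes. It was 0.83 with that of the 12 further outer hair cell genes, as a description. With the latter sum, r of the other members ranged from -0.80 for *Sri* to 0.83 for *Kcnn2*, with 0.02 for *Slc26a5* and 0.14 for *Ocm*. No r with *Art1* itself was computed, and its part in the *Chrna10* values was not tested. In the absence of WT_6 the log2 fold change of *Chrna10* was 0.23 (edgeR adjusted p = 0.784).

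The channel that follows the receptor, *Kcnn2* (ENSMUSG00000054477.16, chromosome 18 from 45268860 to 45686024, plus strand), had 24.0, 32.2, 47.6 and 31.9 CPM in WT, against 29.3, 28.3, 33.7 and 35.4 CPM in *Opa1*+/- mice. WT mice held both the lowest and the highest value. Its log2 fold change was -0.10 (SE 0.180, 95% interval -0.50 to 0.31, edgeR adjusted p = 0.935), and it turned to 0.11 without WT_6 (edgeR adjusted p = 0.819). The 15 skeletal muscle genes summed to 308 to 2863 CPM in WT and to 29.2 to 1464 CPM in *Opa1*+/- mice, with the highest sum in WT_6 as well, and their part in the *Kcnn2* values was not tested. Over the 8 mice, with group means removed, Pearson's r of *Kcnn2* was 0.14 with the muscle sum. It was 0.83 with the further outer hair cell sum and 0.82 with the sum of genes shared by both kinds of hair cell. For the inner hair cell genes it was 0.89. The shared list holds *Xirp2*, which is also a muscle gene. With these hair cell sums in the same order, *Slc26a5* had 0.02, -0.08 and 0.10, and *Ocm* had 0.14, -0.27 and -0.06. These r values are a description of libraries that share tissue makeup and depth. Neurons also make SK2, and the share of outer hair cells in this level was not measured. Of its exon bases, 3.8% are shared with *A330093E20Rik* and 4.33% with *AC121957.1*.

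*Strc* (ENSMUSG00000033498.14, chromosome 2 from 121363728 to 121387168, minus strand) was measured at 2.91, 4.20, 5.62 and 4.70 CPM in WT, against 3.72, 4.06, 4.46 and 6.64 CPM in *Opa1*+/- mice. WT_4 was the lowest and Het_491 the highest, and the remaining mice were mixed. On the log2 scale the difference was 0.11 (SE 0.240, 95% interval -0.43 to 0.65, edgeR adjusted p = 0.943), and it was 0.25 without WT_6 (edgeR adjusted p = 0.784). *Strc* shares 10 exon bases with the neighbouring *Ckmt1*, or 0.161% of its own.

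For *Lmod3* (ENSMUSG00000044086.8, chromosome 6 from 97238534 to 97252759, minus strand), a leiomodin that nucleates actin filaments and is best known from skeletal muscle, 1.20, 1.22, 4.84 and 0.832 CPM were found in WT. The *Opa1*+/- mice had 0.946, 2.31, 1.61 and 1.02 CPM. WT_6 exceeded every other mouse, and Het_7 and Het_484 came next. These were also the 3 mice with the most RNA of the 15 skeletal muscle genes, at 2863, 1464 and 1064 CPM. Below them, Het_491 still had 1.02 CPM of *Lmod3* with 29.2 CPM of muscle genes. For the genotypes the log2 fold change was -0.42 (SE 0.564, 95% interval -1.69 to 0.84, edgeR adjusted p = 0.907), and without WT_6 it was 0.46 (edgeR adjusted p = 0.731). The muscle list itself had a log2 fold change below 0 in 15 of 15 genes, with a median of -0.63, and none of them passed the adjusted threshold. That direction rested on WT_6, since without it 14 of the 15 were above 0, with a median of 0.59, and the summed level was 529 ± 208 CPM in WT (SD, n = 3) and 721 ± 659 CPM in the *Opa1*+/- mice (SD, n = 4). Over the 8 mice, with group means removed, Pearson's r of *Lmod3* was 0.66 with the muscle sum and 0.68 with the further outer hair cell sum. It was 0.82 with the shared hair cell sum, which holds the muscle gene *Xirp2*, as a description. How much of the *Lmod3* level came from muscle was not tested.

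**Figure D2:**
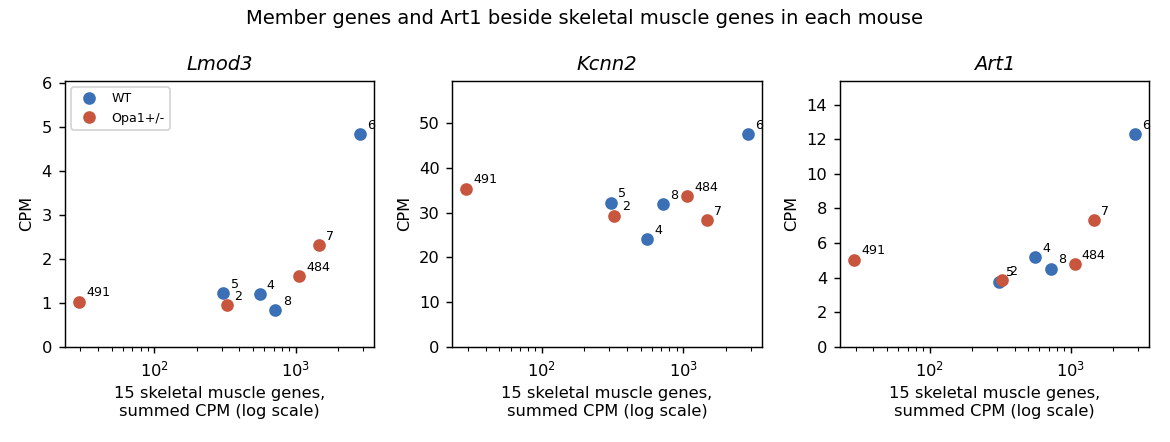
Lmod3, Kcnn2 and Art1 in CPM (vertical axes) against the summed CPM of 15 skeletal muscle genes (horizontal axis, log scale) in each of the 8 mice, WT in blue and Opa1+/- in red with animal numbers. WT_6 has the highest value on both axes in all 3 panels, while Het_491, with 29.2 CPM of muscle genes, lies within the range of the other mice for each gene.

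*Ikzf2* (ENSMUSG00000025997.13, chromosome 1 from 69531214 to 69687245, minus strand) was the 1 gene of the 9 with separate groups. It had 9.70, 11.1, 10.6 and 11.6 CPM in WT_4, WT_5, WT_6 and WT_8, and 8.34, 8.17, 9.04 and 8.17 CPM in Het_2, Het_7, Het_484 and Het_491. The lowest WT mouse thus lay above the highest *Opa1*+/- mouse by less than 1 CPM. The means were 10.8 ± 0.806 and 8.43 ± 0.412 CPM (SD, n = 4 per genotype). An exact two-sided permutation test gave p = 0.0286, which is the smallest that 70 arrangements of the mice allow and the value that any separate groups of this size give, and p from 0.171 upward for each of the other 8 genes. Fitted by edgeR, the level was 21.7% lower, with a 95% interval from -32.3% to -9.38%. This is a log2 value of -0.35 (SE 0.0939), with an unadjusted p of 0.00410 and an adjusted p of 0.722 over all genes, so the difference did not pass. The adjusted p was 0.592 from DESeq2, and without WT_6 the log2 value was -0.36 (edgeR adjusted p = 0.636).

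The log2 fold change of *Ikzf2* was below 0 under each of the 19 alternatives tried, from -0.40 to -0.27, with adjusted p between 0.381 and 1. As the groups are separate, leaving mice out could hardly turn this sign, and the other alternatives refit the same counts. The constant direction is thus no further support. The 128 to 237 counts per mouse give a counting error of 7.59%, and the coefficient of variation between mice of a group was 6.67%, no larger than that. Set against the summed CPM of the 17 genes listed as shared by inner and outer hair cells less *Xirp2*, which was left out after its values were seen, *Ikzf2* made up ratios of 0.0367, 0.0372, 0.0289 and 0.0376 in WT. In *Opa1*+/- mice these were 0.0266, 0.0288, 0.0312 and 0.0274, and the groups overlapped through WT_6 and Het_484. *Ikzf2* is also made by regulatory T cells. The 7 T cell genes checked summed to 3.28 to 5.19 CPM in WT, against 3.07 to 4.79 CPM in *Opa1*+/- mice. *Trac*, the constant region of the T cell receptor alpha chain, was at 0.635 to 1.31 CPM over all mice. With group means removed, Pearson's r of *Ikzf2* over the 8 mice was 0.93 with the supporting cell sum and -0.79 with the T cell sum. It was 0.04 with the further outer hair cell sum, 0.17 with the shared hair cell sum and 0.33 with the inner hair cell sum. These values are a description, and the cell source of *Ikzf2* RNA was not tested. An antisense gene covers 1.24% of its exon bases.

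Because *Ikzf2* encodes a factor of the Ikaros family, the start regions of the other members were searched for TGGGAA, a form of the motif that this family binds, on both strands, and no other motif was searched. Windows of 300 bases, from 250 before to 50 after the start, were read for 6 of the 9 genes from RefSeq on GRCm38.p6. *Slc26a5* and *Sri* had 1 match each, *Chrna10* had 2, and *Chrna9*, *Strc* and *Ocm* had none. The motif was found in 25.6% of 32851 such windows of all genes. The windows of the motor gene, the efferent receptor subunit with 2 matches and the calcium buffer gene are shown for comparison, 5′ to 3′ on the strand of the gene, with matches in capitals (TTCCCA where the match is on the other strand). They lie at chr5:21865555-21865854, chr7:102116664-102116963 and chr5:144050560-144050859, all on the minus strand. The RefSeq starts of *Ocm*, *Strc*, *Chrna9* and *Chrna10* are not the outermost starts in GENCODE vM21. That of *Ocm* lies outside the gene, and those of *Strc*, *Chrna9* and *Chrna10* lie inside theirs. Other start regions of these genes were not searched.
Slc26a5: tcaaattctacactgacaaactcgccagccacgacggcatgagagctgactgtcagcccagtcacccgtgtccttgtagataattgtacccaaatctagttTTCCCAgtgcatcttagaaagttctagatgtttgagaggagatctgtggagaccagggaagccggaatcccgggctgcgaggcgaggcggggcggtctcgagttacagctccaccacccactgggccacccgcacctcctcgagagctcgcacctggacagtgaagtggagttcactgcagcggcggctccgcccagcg
Chrna10: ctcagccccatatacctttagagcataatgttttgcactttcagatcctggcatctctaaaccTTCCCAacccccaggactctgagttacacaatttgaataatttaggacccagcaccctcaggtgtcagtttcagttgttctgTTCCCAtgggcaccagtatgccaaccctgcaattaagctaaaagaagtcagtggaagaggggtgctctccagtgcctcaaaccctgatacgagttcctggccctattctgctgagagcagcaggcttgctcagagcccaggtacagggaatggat
Ocm: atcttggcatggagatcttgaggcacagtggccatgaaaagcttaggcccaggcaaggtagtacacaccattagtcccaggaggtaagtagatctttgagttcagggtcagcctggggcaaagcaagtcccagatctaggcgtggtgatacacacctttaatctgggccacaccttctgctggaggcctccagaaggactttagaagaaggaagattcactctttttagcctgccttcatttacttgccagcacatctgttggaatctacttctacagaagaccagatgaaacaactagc
A match is a run of letters and not a binding site, and nothing on the factor is read from it or from its absence.

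**Figure D3:**
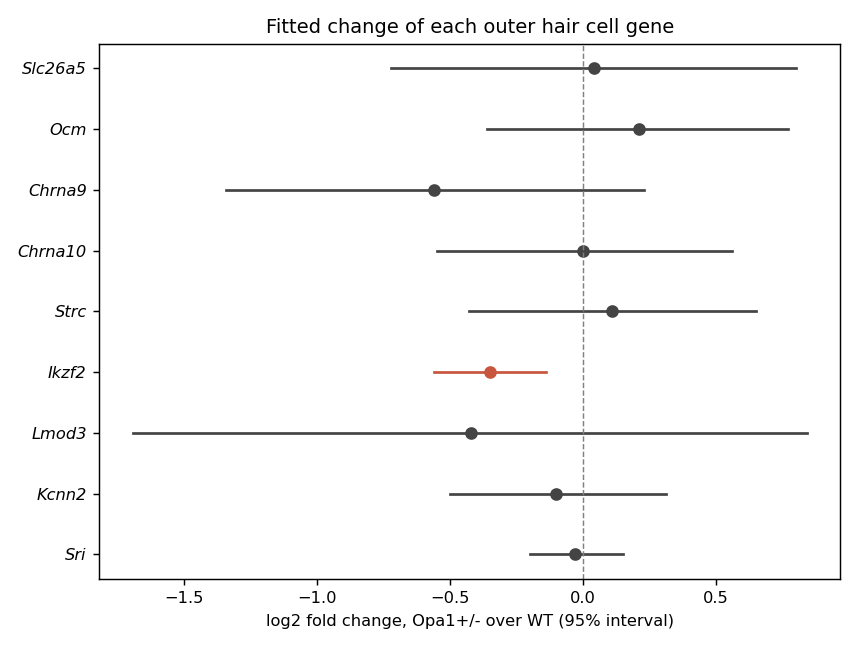
Fitted log2 fold change of each gene, Opa1+/- over WT (horizontal axis), as a point with its 95% interval, and Ikzf2, whose groups do not overlap, in red. The interval of Ikzf2 runs from -0.56 to -0.14, while the intervals of the other 8 genes include 0 and are widest for Lmod3 and Chrna9.

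Divided by exon length, the levels of the 9 genes were ordered from *Ocm* at 31.0 CPM per kb and *Sri* at 15.1, through *Kcnn2* at 4.39 and *Chrna10* at 1.95, down to a group of 5. In the latter, *Ikzf2* had 0.826, *Lmod3* 0.789, *Slc26a5* 0.754, *Strc* 0.729 and *Chrna9* 0.445 CPM per kb, as means over 8 mice. Each step from *Ocm* to *Ikzf2* held in 8 of 8 mice without overlap of the ranges. Among the last 5 the ranges overlapped between neighbours, with *Slc26a5* above *Strc* in 4 of 8 mice, so their order is not settled. *Ocm* RNA was thus the most abundant per length, between 20.2 and 45.6 CPM per kb over the mice, and the motor gene was among the least abundant. The length is that of all annotated exons of a gene, and transcripts that leave exons out would change these values.

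**Figure D4:**
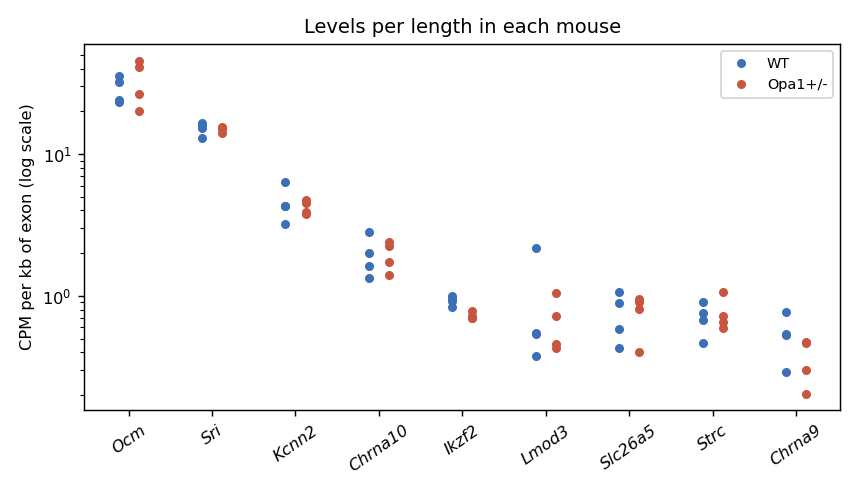
Level of each gene in CPM per kb of annotated exon (vertical axis, log scale) in each mouse, WT in blue and Opa1+/- in red, with genes ordered by their mean over the 8 mice. Ocm and Sri stand highest at 31.0 and 15.1 CPM per kb, and the 5 genes on the right overlap each other.

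Relatives of the 9 genes were read from the same fit, and none passed an adjusted p of 0.05 in edgeR or DESeq2, while 1 had an unadjusted p under 0.05. Beside the median log2 fold change of each family stands its range with 1 mouse left out. Among 10 other SLC26 transporters, 6 were tested, 1 above and 5 below 0, with a median of -0.07 (range -0.12 to 0.01). *Slc26a4*, which encodes pendrin, had 63.4 ± 17.5 CPM in WT, against 54.9 ± 10.7 CPM in *Opa1*+/- mice (SD, n = 4 per genotype). Of 14 other nicotinic receptor subunits, 11 were tested, 4 above and 7 below 0 (median -0.13, range -0.22 to -0.02), led by *Chrnb2* at 27.6 ± 2.01 and 28.2 ± 2.29 CPM (SD, n = 4 per genotype). In the SK family, *Kcnn4* was the 1 relative with an unadjusted p under 0.05, from 8.96 to 13.8 CPM in WT, against 11.4 to 16.5 CPM in *Opa1*+/- mice, with overlap (log2 fold change 0.37, SE 0.159, edgeR adjusted p = 0.732). The median of the 3 SK genes was 0.11 (range -0.02, without Het_491, to 0.21, without WT_4), with 2 above and 1 below 0. The other 4 Ikaros family genes were divided 2 and 2, with a median of 0.00 (range -0.04 to 0.15), and *Ikzf5*, the most abundant of them, had 27.3 ± 1.67 and 26.5 ± 1.79 CPM (SD, n = 4 per genotype). For 6 other leiomodins and tropomodulins the median was -0.09, with 2 above and 4 below 0 (range -0.11 to 0.09), and for 5 other penta-EF-hand genes it was 0.06, with 4 above and 1 below (range 0.04 to 0.07). Only the nicotinic and penta-EF-hand medians kept their sign with each mouse left out in turn. *Pdcd6*, of the latter, had separate groups, at 38.3 ± 0.478 and 39.9 ± 1.13 CPM (SD, n = 4 per genotype), with an edgeR adjusted p of 0.818.

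Other genes of the outer hair cell and its surroundings were listed by role, and none passed in edgeR or DESeq2. No gene among these lists had an unadjusted p under 0.05 either. Of 12 further genes of the outer hair cell and its synapses, 11 were tested, of which 1 was above and 10 were below 0, with a median log2 fold change of -0.08 beside 0.000395 over all genes. Without WT_6 this became 6 above and 5 below 0, with a median of 0.02. Among them, the calcium pump gene *Atp2b2* had 112 ± 15.8 and 107 ± 11.6 CPM (SD, n = 4 per genotype). Genes of stereocilia links and the tectorial membrane, the attachment that stereocilin serves, were 4 above and 5 below 0 (median -0.02), or 8 above and 1 below (median 0.17) without WT_6, and *Ceacam16*, a tectorial membrane protein, had 101 ± 27.4 and 133 ± 28.6 CPM (SD, n = 4 each, edgeR adjusted p = 0.760). Genes shared by both kinds of hair cell numbered 6 above and 10 below 0 among 16 tested, with a median of -0.04. Their summed level was 343 ± 73.6 CPM in WT, against 317 ± 12.1 CPM in *Opa1*+/- mice (SD, n = 4 per genotype). Without WT_6 the WT level was 308 ± 22.9 CPM (SD, n = 3), below that of the *Opa1*+/- mice, and 11 of the genes were above and 5 below 0, with a median of 0.05. One of them, *Xirp2*, is also a muscle gene and stood at 82.1 CPM in WT_6 and 4.53 CPM in Het_491. Inner hair cell genes were 1 above and 4 below 0 (median -0.08), or 3 above and 2 below (median 0.09) without WT_6, with *Otof*, the calcium sensor of their synapse, at 43.2 ± 11.2 and 41.3 ± 7.25 CPM (SD, n = 4 per genotype). Supporting cell genes were 2 above and 3 below 0 (median -0.09), or 3 above and 2 below (median 0.03) without WT_8. Their summed level was 433 ± 56.2 CPM and 474 ± 48.5 CPM (SD, n = 4 per genotype), the higher in *Opa1*+/- mice. Most of this sum was *Fbxo2*, at 345 ± 44.3 and 392 ± 47.9 CPM (SD, n = 4 per genotype), so it mainly follows that gene. Of 4 otolith organ genes, 2 were tested, 1 on each side of 0 (median 0.03, range -0.08 to 0.24 with 1 mouse left out), with a summed level of 12.3 to 17.9 CPM in WT, against 10.3 to 17.2 CPM in *Opa1*+/- mice. The 10 neuron and Schwann cell genes were 7 above and 3 below 0 (median 0.04, range 0.02 to 0.10), the 8 erythroid and neutrophil genes 5 above and 3 below (median 0.02, or -0.19 without WT_6 and 0.77 without WT_4), and both T cell genes tested were below 0 (median -0.06), but both were above 0 without WT_4 (median 0.10) and the median was -0.35 without Het_491.

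The 9 genes did not vary as 1 unit from mouse to mouse. After group means were removed, Pearson's r of log2 CPM over the 8 mice ranged from -0.89, for *Lmod3* with *Sri*, to 0.84, for *Strc* with *Kcnn2*, among 36 pairs, and was 0.73 for *Slc26a5* with *Ocm* and 0.57 for *Chrna9* with *Chrna10*. These values describe 8 libraries that share tissue makeup and depth, and no p is given for them. Compared with the mean pattern of *Slc26a5*, *Ocm*, *Chrna9*, *Chrna10* and *Strc*, the genes most alike among all tested were *Vmp1* (r = 0.99) and *Ly6a*, *Camta2*, *Mgat5b* and *Smagp* (r = 0.97 each). They were ranked out of 19366 genes over 8 libraries and nothing on function is read from them. Of the members themselves, *Kcnn2* had r = 0.73 with this pattern, *Ikzf2* 0.33, *Lmod3* 0.26 and *Sri* -0.44.

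**Figure D5:**
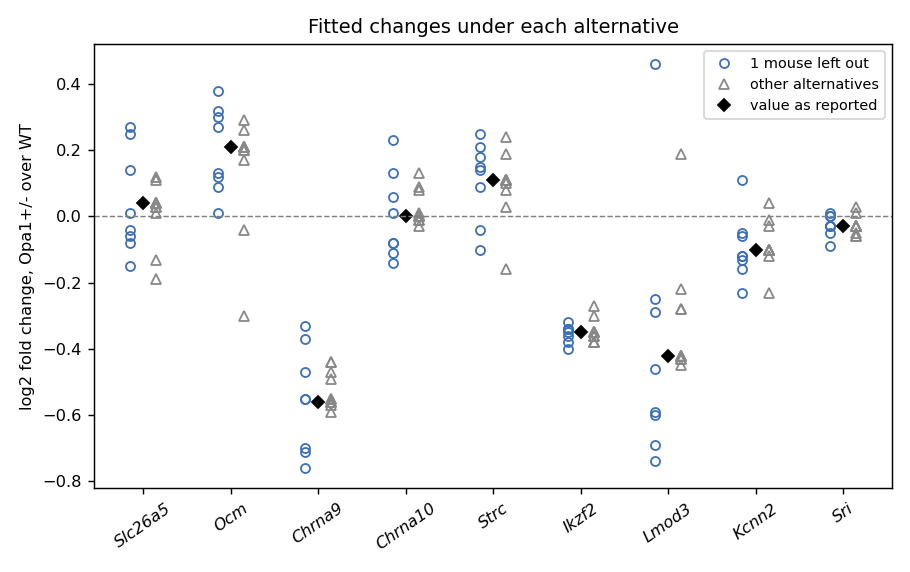
Log2 fold change of each gene, Opa1+/- over WT (vertical axis), as reported (black diamonds), with 1 mouse left out (blue circles) and under the other alternatives (grey triangles). The values of Ikzf2 stay between -0.40 and -0.27 and those of Chrna9 between -0.76 and -0.33, whereas those of the other 7 genes lie on both sides of 0.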

How the data were processed

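RNA of 8 cochlear samples, 4 WT and 4 *Opa1*+/- mice grouped by their labels, was sequenced from CORALL libraries as paired reads (2 × 80 nucleotides). The authors trimmed adapters, used molecular identifiers against amplification bias and mapped reads to GRCm38 with STAR, as the submitters' processing notes list, and deposited 1 table of raw counts per gene symbol for each mouse. The counting program, its annotation and its use of strand are not given in the sources used here. From these counts, 15 entries with a number for a symbol were left out (0.112% to 0.124% of counts). Library sizes were scaled by TMM factors (0.948 to 1.06), and genes with a mean normalized count over 10 were tested with the quasi-likelihood test of edgeR 4.0.16, with Benjamini-Hochberg adjustment over 19366 genes. Intervals at 95% come from its standard errors and degrees of freedom. DESeq2 1.42.0 and limma 3.58.1 (voom) served as alternatives, in R 4.3.3. The lists were also read with each mouse left out, an alternative chosen after seeing the data. The steps were tested on simulated data. The paper's methods name DESeq2 with the same minimum. Replicates are mice. No animal number occurs in both genotypes. Positions and exon lengths are from GENCODE vM21. The members and the 16 other gene lists were chosen with earlier results of these data known. The genes named are the members, in each list up to 4 genes by mean level and any with an unadjusted p under 0.05, and the 5 genes most like the members in pattern. *Trac* and *Xirp2* fall under this rule, and *Art1*, *Ckmt1*, *Slc17a8* and the genes that overlap *Kcnn2* were named outside it after their values were seen.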

Additional observations from a re-analysis of the deposited data

Results flagged for a closer look

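*Lmod3* in WT_6, at 4.84 CPM, lay far from the other 3 WT mice, the next of which had 1.22 CPM. The gap was 0.903 of the range of the group, above the 95% critical value of Dixon's test for 4 samples. Of the 18 groups examined, 9 genes in 2 genotypes, this was the 1 that stood out, and chance alone would give about 1 in 20. WT_6 also had the most skeletal muscle RNA, 2863 CPM over 15 genes, and the part of muscle in this value was not tested.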

How the results depend on the processing

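No outer hair cell gene was called under any of 20 alternatives, including each mouse left out in turn. Over all genes, where 5 were called, the count was 2 when scaled by the hair cell genes, 3 without *Xirp2* among them (a scaling chosen after seeing the data), 23 with DESeq2, 10 with limma voom, 10 with robust estimation, 12 with no filter, 11 at an adjusted p under 0.1 and 0 without Het_484 and Het_491. With 1 mouse left out it was 0 to 9, with 9 without WT_4, 8 without Het_7, 2 without WT_5, 0 without Het_2 and 1 without each of the other 4. The count of outer hair cell genes with separate groups was 0 under both hair cell scalings, where 1.49% and 1.65% of all genes separated, and 1 to 2 with 1 mouse left out, where 5.67% to 11.6% did, with *Chrna9* the second in the absence of WT_5. The direction of 7 genes turned under some alternatives. With DESeq2 size factors *Chrna10* was -0.01, with total counts -0.03 and with DESeq2 -0.01. Scaled by hair cell genes, *Kcnn2* was 0.04 and *Sri* 0.03, and without *Xirp2* *Sri* was 0.01. With limma voom *Slc26a5* was -0.19, *Ocm* -0.04 and *Lmod3* 0.19. Without Het_484 and Het_491, *Slc26a5* was -0.13, *Ocm* -0.30 and *Strc* -0.16. With 1 mouse left out, *Slc26a5* ranged from -0.15 to 0.27, *Chrna10* from -0.14 to 0.23, *Strc* from -0.10 to 0.25, *Lmod3* from -0.74 to 0.46, *Kcnn2* from -0.23 to 0.11 and *Sri* from -0.09 to 0.01. *Ikzf2* and *Chrna9* stayed below 0 throughout, which for *Ikzf2* was largely set by its separate groups. *Opa1* kept a log2 fold change between -0.91 and -0.80 and lost its call without Het_2 (adjusted p = 0.0704 in edgeR), without both Het_484 and Het_491, and under both hair cell scalings. The causes were not tested. No paired analysis was made, as the animal numbers do not show which mice came from the same litter. Only *Opa1*+/- mice had 3-digit numbers, Het_484 and Het_491, so these were also left out together. What the numbers stand for is not given in the sources used here. Counting error was largest for *Chrna9*, *Lmod3* and *Slc26a5*, and the spread between mice exceeded it in each.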

Other observations

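Ratios within a mouse do not depend on library scaling. *Ocm* counts were 7.25 to 13.0 times those of *Slc26a5* in WT and 6.64 to 13.4 times in *Opa1*+/- mice, so both genotypes spanned much the same range. *Chrna10* counts were 2.21 to 4.89 times those of *Chrna9* in WT and 3.21 to 6.94 times in *Opa1*+/- mice, with Het_7 and Het_484 above all WT mice and the groups overlapping. *Slc26a5* set against the inner hair cell genes *Otof* and *Slc17a8* together gave 0.0396, 0.0665, 0.0284 and 0.0510 in WT and 0.0240, 0.0555, 0.0751 and 0.0524 in *Opa1*+/- mice, which overlapped as well.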
